A study of Tribolium castaneum with 8 samples.

Results

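Rhodopsin, the light receptor of the photoreceptor cell, and its 2 visual arrestins were followed from embryo to adult in the red flour beetle Tribolium castaneum. The genes were chosen by name: rhodopsin (TC013765), arrestin 2 (TC009551) and arrestin 1 (TC013804), which are 3 of the 14422 gene models with reads in at least 1 library. The names are those given in the deposited files, and RefSeq has the symbols Arr2 and Arr1 for the arrestins. All animals were of the strain GA-1, reared in whole wheat flour with 5% yeast at 30 °C, and RNA came from whole bodies. There was 1 RNA sequencing library each of embryos of 3 days, late larvae of about 20 days, pupae of 3 days and adults of 3 days, with no other treatment or genotype. DNA for 4 bisulfite libraries of the same stages, not analysed here, came from pooled animals, and the sources used here do not give the number of animals behind each RNA library. Eyes were not dissected, so the labelled tissue is the whole animal and where in the body a transcript was made was not measured.

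In the compound eye of Drosophila, light turns rhodopsin into an active form that couples to a Gq protein, which switches on the phospholipase C norpA, and TRP and TRPL cation channels then open. Arrestins bind the active form and end its signal: arrestin 2 is the major arrestin of fly photoreceptors, and arrestin 1 also takes part in the light-dependent uptake of rhodopsin from the membrane. Beetle larvae see with stemmata, small simple eyes at the side of the head, and the compound eyes are built during metamorphosis.

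The libraries held 3.09 M to 3.67 M unique reads in genes, and 12594 to 13420 genes were listed in each. Since each stage is a single library, differences have no replicate check, no p-value is given, and values describe these 4 libraries. Intervals in parentheses are 95% counting intervals, and they cover counting error only. Levels are RPKM, reads scaled to the length of the gene model and the total of the library. A bulk value does not tell fewer cells of a type from less RNA per cell.

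All 3 genes had reads in all 4 libraries and were highest in the adult. Rhodopsin stood at 137 RPKM in the adult and below 5 RPKM in every other library. Arrestin 2 had the highest value of the 3 in every library, by a margin within counting error in the larva, and it was already at 63.6 RPKM in the pupa. Arrestin 1 had lower values than arrestin 2 throughout, and its pupal and embryonic levels could not be ordered. The adult library held 94.0% of the RPKM of rhodopsin summed over the 4 libraries, 77.5% of that of arrestin 2 and 71.7% of that of arrestin 1.

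**Figure D1:**
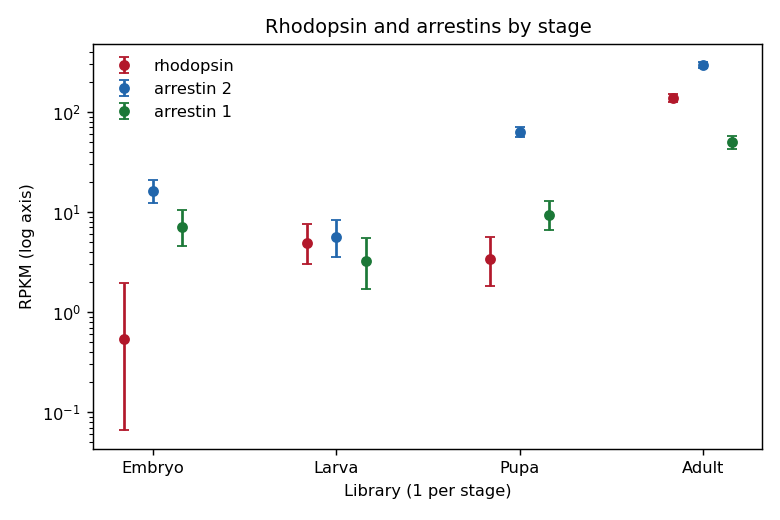
Levels of rhodopsin, arrestin 2 and arrestin 1 in RPKM on a log axis, in 1 library per stage; points are the values and bars the 95% counting intervals. All 3 genes are highest in the adult, rhodopsin at 137, arrestin 2 at 295 and arrestin 1 at 49.7 RPKM, and rhodopsin alone is not higher in the pupa than in the larva.

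Rhodopsin (model of 1137 bases, of the r-opsin class in the files) had 2 embryonic, 20 larval, 14 pupal and 481 adult reads. Its level was 0.542 RPKM (0.0657 to 1.96) in embryos, 4.92 (3.00 to 7.60) in larvae, 3.35 (1.83 to 5.62) in pupae and 137 (125 to 150) in adults. The adult stands far above the other libraries, and the intervals of larva and pupa overlap. Among the genes listed in each library, rhodopsin ranked 11773 of 12667 in the embryo and 933 of 13420 in the adult. The adult level was 40.9-fold (24.1 to 75.4) the pupal one, and 128 of the 12713 genes tested at that step had a larger ratio. It was 27.9-fold (17.8 to 46.0) the larval level. The larval level was 9.07-fold (2.20 to 80.0) the embryonic one, with only 2 reads in the embryo. From larva to pupa the ratio was 0.682 (0.319 to 1.42), whose interval holds 1, so the larval and pupal levels are not ordered at this depth.

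Arrestin 2 (1203 bases) had 63 embryonic, 24 larval, 281 pupal and 1094 adult reads. These correspond to 16.1 RPKM (12.4 to 20.7), 5.58 (3.57 to 8.30), 63.6 (56.4 to 71.5) and 295 (277 to 313). No 2 of the 4 intervals overlap, and the order is adult, pupa, embryo, larva. The larval level was 2.89-fold (1.78 to 4.84) lower than the embryonic one. The pupal level was 11.4-fold (7.51 to 18.1) the larval one, and 175 of the 12280 genes tested at that step had a larger ratio. The adult level was a further 4.63-fold (4.06 to 5.30) the pupal one, which brings it to 52.8-fold (35.3 to 82.8) the larval level. Arrestin 2 ranked 413 among the genes listed in the adult, 2655 in the pupa and 9131 in the larva.

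Arrestin 1 (1134 bases) had 26 embryonic, 13 larval, 39 pupal and 174 adult reads. Its level was 7.07 RPKM (4.62 to 10.4) in embryos, 3.21 (1.71 to 5.48) in larvae, 9.36 (6.66 to 12.8) in pupae and 49.7 (42.6 to 57.7) in adults. The adult lies above the rest, and the intervals of the embryo overlap those of both the larva and the pupa. The adult level was 5.31-fold (3.73 to 7.72) the pupal one and 15.5-fold (8.84 to 29.7) the larval one. The pupal level was 2.92-fold (1.53 to 5.96) the larval one. The larval level was 2.20-fold (1.09 to 4.67) lower than the embryonic one, an interval that reaches almost to 1. Pupa and embryo were not ordered, with a ratio of 1.32 (0.786 to 2.27).

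Across the whole table, a gene was tested at a step when it had at least 1 RPKM in either library, and it was counted as higher or lower when RPKM + 1 differed by at least 2-fold. All 3 genes passed this filter in all 6 pairs of libraries. They were chosen by name with earlier results of these data known, so their counts are a description and not a test. From pupa to adult, 3 of 3 were higher, where 22.8% of all tested genes were higher and 15.6% lower. From larva to pupa, the 2 arrestins were higher and rhodopsin was not counted, where 22.7% of tested genes were higher and 14.2% lower. From embryo to larva, rhodopsin was higher and arrestin 2 lower, where 18.6% were higher and 34.2% lower. Under median-ratio scaling of the libraries arrestin 2 was no longer counted at that step, being 1.86-fold lower, nor arrestin 1 from larva to pupa, at 2.13-fold in the ratio but under 2-fold on the scaled value + 1, and the larval over embryonic ratio of rhodopsin was 14.1. Without that scaling, arrestin 1 was not counted from embryo to larva, with a log2 difference of -0.94. Over the longer spans, 3 of 3 were higher in the adult than in the embryo, where 25.1% of tested genes were, and 3 of 3 higher in the adult than in the larva, where 23.3% were. These comparisons share libraries, so a low larval value enters both steps around it.

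The arrestins and rhodopsin were compared with each other within each library. Arrestin 2 stood at 29.8 times (7.91 to 251) the level of rhodopsin in embryos, 1.13 times (0.600 to 2.16) in larvae, 19.0 times (11.1 to 35.1) in pupae and 2.15 times (1.93 to 2.40) in adults. In the pupa the RNA of arrestin 2 was thus far above that of rhodopsin, and in the larva the 2 genes could not be ordered. Protein was not measured. Arrestin 1 was 13.0 times (3.26 to 113) rhodopsin in embryos, 0.652 times (0.298 to 1.38) in larvae and 2.79 times (1.48 to 5.57) in pupae. In the adult the order was the opposite, with rhodopsin 2.76-fold (2.31 to 3.30) above arrestin 1. Arrestin 2 exceeded arrestin 1 by 2.28-fold (1.43 to 3.76) in the embryo, 6.79-fold (4.85 to 9.75) in the pupa and 5.93-fold (5.05 to 7.00) in the adult, while the larval ratio of 1.74 (0.852 to 3.72) was not distinguishable from 1. The pupal and adult ratios of the 2 arrestins have overlapping intervals.

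**Figure D2:**
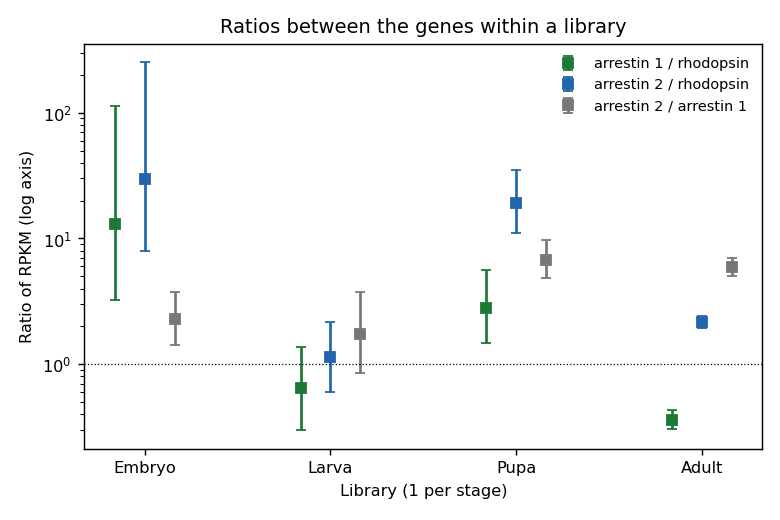
Ratios of RPKM between the 3 genes within each library, on a log axis; squares are the ratios, bars the 95% counting intervals and the dotted line marks 1. Both arrestins stand above rhodopsin in the embryo and the pupa, and in the adult arrestin 2 is at 2.15 times and arrestin 1 at 0.363 times rhodopsin.

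The files also give the covered percent of each gene model, a value the counts do not fix. From embryo to adult, rhodopsin was covered over 8.62%, 44.9%, 33.9% and 99.2% of its model. Models of 900 to 1500 bases with a similar read density had median coverage of 8.47%, 50.0%, 39.3% and 98.4% in the same libraries, so rhodopsin was covered slightly below the median in larva and pupa. Arrestin 2 was covered over 84.6%, 66.5%, 99.3% and 99.9% from embryo to adult. Arrestin 1 was covered over 62.3%, 49.7%, 76.9% and 94.5%. In the larva, where the arrestins had fewest reads, their coverage lay above that of most matched models, whose medians were 54.0% and 36.3%. The larval reads of all 3 genes were spread over a large share of their models.

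**Figure D3:**
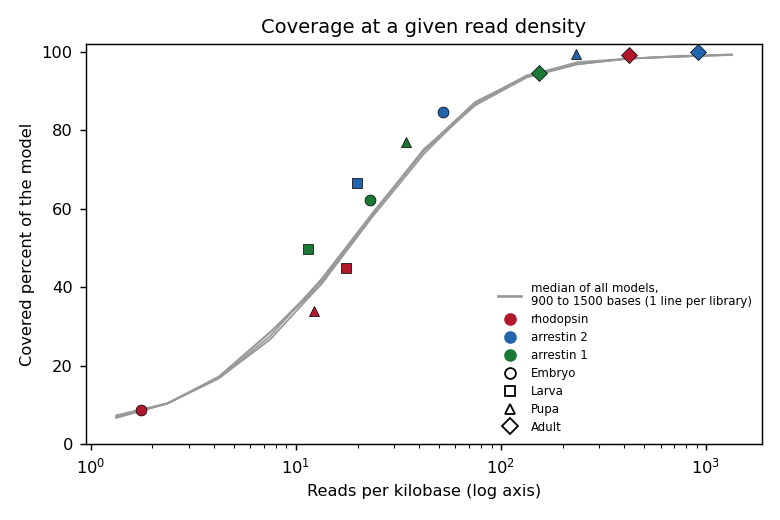
Covered percent of the gene model against reads per kilobase (log axis) for the 3 genes, with symbols for the 4 libraries; grey lines are medians of all models of 900 to 1500 bases, 1 line per library. The 12 points lie near the grey lines, with the larval arrestin points above them and the larval and pupal rhodopsin points slightly below.

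Other opsins and the third arrestin were less uniform. The r-opsin TC000118 had 6 embryonic, 3 larval, 3 pupal and 56 adult reads, and its adult level was 22.2-fold (7.22 to 111) the pupal one. A further r-opsin, TC005490, had 0 embryonic, 0 larval, 5 pupal and 21 adult reads, a 5.00-fold (1.83 to 17.0) ratio of adult to pupa. In the adult, rhodopsin at 137 RPKM stood above these r-opsins at 16.8 and 4.71 RPKM. How much sequence the r-opsins share was not measured, and since unique reads were counted, reads common to copies would be missing from all of them. The opsin of the ciliary type, TC007259, was instead highest in the pupa, at 12.7, 6.51, 45.6 and 29.7 RPKM from embryo to adult. Kurtz (TC001639), the non-visual beta-arrestin in Drosophila, stood at 116, 63.8, 88.8 and 63.4 RPKM, and its adult level was 1.40-fold (1.20 to 1.63) lower than the pupal one. In the adult, arrestin 2 exceeded kurtz in level, and in the other 3 libraries kurtz was the higher.

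The rest of the phototransduction list held 34 genes, matched by their names or orthology in the files, and 12 of them (35.3%) were highest in the adult, against 26.8% of all genes. From pupa to adult 9 of 32 tested genes were higher and 3 lower, near the 22.8% and 15.6% over all tested genes, with a median log2 difference of 0.18 against -0.09 over all genes tested. From larva to pupa 12 of 28 were higher and 2 lower, where 22.7% and 14.2% of all tested genes were, with a median of 0.92 against 0.43. From embryo to larva 2 of 29 were higher and 15 lower, where 18.6% and 34.2% were, with a median of -1.15 against -0.62. Of the 34, 18 (52.9%) were highest in the embryo, against 40.9% of all genes.

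Genes with their highest level in the adult lay at several positions of the cascade, beside genes of the same roles that were highest in the embryo. The latter were 2 of 3 phospholipase C beta genes, 1 of 4 TRP-C channels, 1 of 2 genes matched as myosin III and 5 of 7 diacylglycerol kinases. They also included 1 of 3 genes matched by the name InaD-like and 1 of 2 CDP-diacylglycerol synthases. Some of these maxima rest on few reads. From embryo to adult, the phospholipase C beta gene TC001390 had 8, 2, 2 and 3 reads, and TC007798 had 15, 8, 14 and 9. The phospholipase C beta TC008027, RefSeq norpA, had 27.2, 16.7, 32.2 and 86.6 RPKM from embryo to adult, a 2.69-fold (2.42 to 2.99) ratio of adult to pupa. The channel TC007743, called TRP gamma in the file and trpl in RefSeq, had 3.05, 1.15, 4.71 and 29.2 RPKM, a 6.20-fold (4.72 to 8.25) ratio. The TRP-C channel TC013866 had 1, 0, 17 and 131 reads, a 9.17-fold (5.51 to 16.2) ratio. TC014087, RefSeq ninaC and in flies a myosin III of the rhabdomere, had 15, 11, 24 and 84 reads, a 4.17-fold (2.62 to 6.86) ratio. The RefSeq rdgA diacylglycerol kinase TC000797, whose fly counterpart ends the lipid signal, was 2.03-fold (1.59 to 2.60) higher in RPKM and stayed just under the 2-fold limit on RPKM + 1.

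Other genes matched to the cascade had no adult maximum. The Gq alpha subunit TC000634, which rhodopsin signals through in flies, had 231, 104, 152 and 141 RPKM from embryo to adult, and adult and pupa could not be ordered, at a ratio of 0.928 (0.829 to 1.04). TC010783, matched as a scaffold by the name InaD-like, had 45.5, 37.1, 104 and 30.2 RPKM, and was 3.46-fold (3.10 to 3.87) lower in the adult than in the pupa. Whether it is the counterpart of the fly photoreceptor scaffold was not tested. Of the 3 genes matched by that name, 2 were counted as lower from pupa to adult. The remaining 1, TC001632, had its highest value in the adult, at 20.7 RPKM. Its adult and pupal levels could not be ordered, at a ratio of 1.20 (0.910 to 1.59). TC001616 and TC001632 also carry the gene name arc. TC007143, named for the fly phosphatase rdgC, had 22.1, 2.11, 9.50 and 7.49 RPKM and was highest in the embryo. TC007028, called TRPL in the file, was high in the larva alone, with 19, 279, 5 and 15 reads from embryo to adult.

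**Figure D4:**
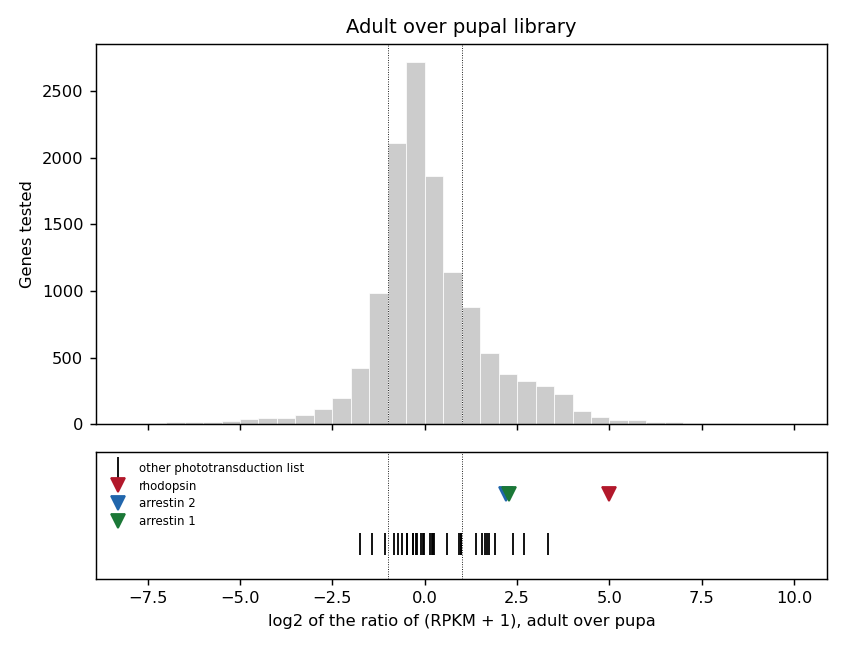
Log2 ratio of (RPKM + 1), adult over pupa, for the genes tested as a histogram (upper panel), and for the 3 genes (triangles) and the other phototransduction genes (ticks, lower panel); dotted lines mark 2-fold and 6 genes lie beyond the left edge of the bins. Rhodopsin, at 4.99, is far to the right of the ticks, and the arrestins, at 2.19 and 2.29, lie among the highest ticks.

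**Figure D5:**
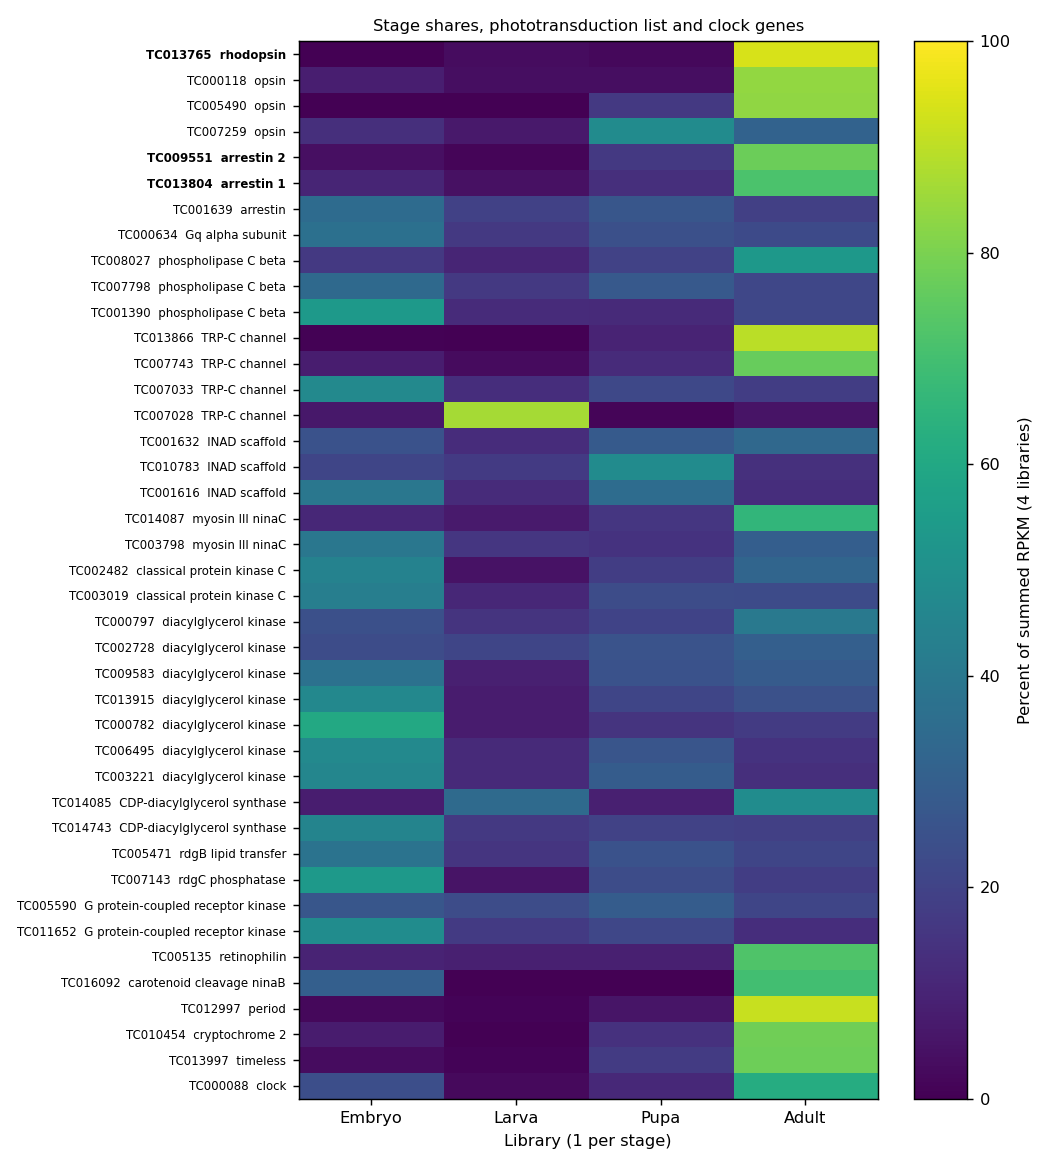
Share of each gene in the RPKM summed over the 4 libraries (color, percent), for the phototransduction list by role and 4 clock genes. The members rhodopsin, arrestin 2 and arrestin 1 have 94.0%, 77.5% and 71.7% in the adult, and 52.9% of the other 34 phototransduction genes are highest in the embryo, against 40.9% of all genes.

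The genes of eye development and of pigment were looked at in the same libraries. Chaoptic (TC000643), an adhesion protein of the fly rhabdomere, had 44, 4, 41 and 281 reads from embryo to adult and an adult level 8.16-fold (5.86 to 11.6) the pupal one. Of the 16 eye development genes 13 were highest in the embryo, where 40.9% of all genes were highest. From pupa to adult 3 of 14 tested were higher and 5 lower, where 22.8% of all tested genes were higher and 15.6% lower. Eyeless (TC008176), the Pax6 regulator of eye formation in flies, had 24.1, 1.06, 4.91 and 2.15 RPKM from embryo to adult. Of the 14 screening pigment genes, 13 were tested from pupa to adult, and 5 were higher and 2 lower against the same shares over all genes. They were matched by enzyme names of the ommochrome and pteridine pathways, several of them as xanthine dehydrogenase/oxidase. Among the 5, TC001968 was counted on 1 adult read, with no reads in the other libraries.

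Markers of other tissues moved as well, and their part in the results on the 3 genes was not tested. The 35 neuron markers summed to 2389, 1090, 1381 and 1127 RPKM from embryo to adult, and from pupa to adult 1 of 32 tested was higher and 4 lower, against 22.8% and 15.6% over all tested genes. The 77 muscle markers summed to 8164, 9702, 8767 and 22106 RPKM in the same order. Many were matched on the orthology name myosin heavy chain alone, and some carry another gene name, such as IKK gamma (TC000541) and Shootin-1 (TC011950). From pupa to adult, where all 3 genes were higher, the neuron sum was lower and the muscle sum higher. A sum is weighted to the abundant genes. The median log2 difference at that step was -0.02 for the neuron list and 0.30 for the muscle list, against -0.09 over all genes tested. From larva to pupa, where the arrestins were higher, the neuron sum was higher and the muscle sum lower. At that step 14 of 32 tested neuron markers were higher and 1 lower, where 22.7% and 14.2% of all tested genes were. Of the muscle markers 30 of 70 tested were higher and 1 lower, so the sum and the count of that list went opposite ways. The 37 midgut markers summed to 465, 10578, 1035 and 829 RPKM from embryo to adult, and from pupa to adult 20 of 30 tested were higher and 3 lower. The 6 fat body markers summed to 208, 52867, 2164 and 68.7 RPKM, so both sums were highest in the larval library, where the arrestins were lowest. The 2 germline markers summed to 15.7, 30.1, 33.8 and 23.7 RPKM.

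The stage profiles of the 3 genes, as shares of RPKM over the 4 libraries, were set against those of 10592 genes with at least 10 RPKM in 1 library. Distances are Euclidean, on 4 libraries, and are given as a description. The named genes nearest to rhodopsin were cytochrome P450 9AB1 (TC005384), the cuticle protein CP5 (TC014685), odorant binding protein 20 (TC030443), ubiquitin C (TC007341) and serine protease P79 (TC008267), and 527 genes lay within a distance of 0.1. The gene nearest to arrestin 2, named or not, was timeless (TC013997), a clock gene in flies, at a distance of 0.0122. It had 6.86, 2.10, 34.4 and 152 RPKM from embryo to adult. Next among named genes came odorant binding protein 21 (TC006131), thymidylate synthase (TC004238), a dynein light chain (TC010012) and nyd-sp29 (TC004239). Some of these nearest profiles rest on few reads. From embryo to adult, odorant binding protein 21 had 1, 0, 4 and 15 reads. Odorant binding protein 20 had 0, 1, 0 and 17, and ubiquitin C had 0, 1, 0 and 20. For arrestin 1 the nearest named genes were a short-chain dehydrogenase (TC009680), Cyclin-A2 (TC005609) and an eclosion hormone-like protein (TC000178), the last with 3, 2, 3 and 20 reads. The channel TC007743 described above and a cytochrome c oxidase subunit VIC (TC011006) followed. Arrestin 1 was rank 113 from arrestin 2, and rhodopsin rank 744 from arrestin 2 and 948 from arrestin 1, so on this measure the arrestins lay nearer to each other than to rhodopsin.

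In the RefSeq gene order, rhodopsin and arrestin 1 lie on 1 chromosome with 58 protein-coding genes between them. Of the 10 nearest RefSeq genes around each, 3 matched a model in the files for rhodopsin, 5 for arrestin 2 and 4 for arrestin 1. Among these, ratios of adult to pupa ran from 0.437 to 1.70 around rhodopsin, from 0.355 to 1.37 around arrestin 2 and from 0.496 to 4.43 around arrestin 1. The high value near arrestin 1 belonged to timeless, with 3 protein-coding genes between. Rhodopsin and arrestin 2 thus had adult ratios above those of every measured neighbour, in a comparison of few genes. The ratio of arrestin 1, 5.31 (3.73 to 7.72), was also above that of timeless, 4.43 (3.98 to 4.95), but these intervals overlap.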

How the data were processed

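Whole-body RNA of 4 stages, 1 library each, was compared. Per the file headers, the deposited counts are unique reads per gene model; the authors deposited RPKM values, the covered percent and the model length beside them. The lowest listed count is 1, and an unlisted gene was taken as 0 reads. SAMtools 0.1.19, BSMAP 2.73 and CASAVA 1.8.2 are listed for the series, per the submitters' processing notes. The sources used here do not give the RNA aligner, genome build or annotation. Per the labels' protocols, polyadenylated RNA was selected and cDNA primed with random hexamers, with no step that marks the strand, so antisense reads cannot be separated. Near-identical copies lose reads when unique reads are counted.

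Libraries were compared as RPKM ratios, with intervals from an exact conditional binomial calculation on reads. Levels carry exact Poisson intervals. Genes reaching 1 RPKM in either library were tested on log2(RPKM + 1), which understates differences of weakly expressed genes, and counted at a difference of 2-fold or more. With 1 library per stage, no test of significance was made. No ratio against 0 reads is printed.

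The genes and lists were chosen with earlier results of these data known. Gene lists were matched on names and orthology in the files, so some members may have another function (TC003798, matched as a myosin III, is igl in RefSeq); the clock genes were added after seeing the data. Named genes are the 3 genes, the phototransduction genes, the 3 most abundant and most changed of other lists, and the 5 informatively named genes with the nearest profile to each; of these a selection is printed, and eyeless was named after its values were seen. RefSeq (assembly icTriCast1.1) gave names and gene order only, for 5311 of 14422 models (36.8%). Other settings were median-ratio scaling, totals without the 20 most abundant genes, TPM, other pseudocounts and filters, and a 4-fold limit. Scripts used scipy 1.17.1, pandas 2.3.3, numpy 2.4.6 and matplotlib 3.10.9 in Python 3.11.15, and were tested on simulated data.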

Additional observations from a re-analysis of the deposited data

How the results depend on the processing

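Median-ratio scaling multiplies every ratio by 1.56 from embryo to larva, 0.729 from larva to pupa and 1.17 from pupa to adult. No stage ratio of the 3 genes between consecutive stages changed direction under any setting. The balance of genes higher and lower over the whole table did, as given below. Of 129 recomputed values, 112 stayed within the limits set for them, and some of these could not have moved. Without the 1 RPKM filter every count was the same, since a 2-fold difference in RPKM + 1 already needs 1 RPKM. The limits were also wide: the larval over embryonic ratio of rhodopsin, 9.07, was 3.84 on RPKM + 1 and stayed within them. At a pseudocount of 0.1 arrestin 1 was also counted as lower from embryo to larva. Under median-ratio scaling its larval over embryonic ratio was 0.707, against 0.454 as reported. At a 4-fold limit rhodopsin and arrestin 2 were not counted at that step, nor arrestin 1 from larva to pupa. Under median-ratio scaling the adult over pupa ratio of arrestin 2 was 5.41, the phototransduction genes lower from embryo to larva numbered 9, and those higher from larva to pupa numbered 6. Screening pigment genes higher from larva to pupa numbered 1 and eye development genes 3, both under median-ratio scaling and without the 20 most abundant genes. In TPM, a unit of another total, the adult levels were 169 for rhodopsin, 363 for arrestin 2 and 61.3 for arrestin 1, and the pupal level of arrestin 2 was 80.2. At a 4-fold limit 2624 genes were counted from embryo to larva (1449 higher, 1175 lower), 1693 from larva to pupa (720 and 973) and 2073 from pupa to adult (1491 and 582), against 2269 and 4169, 2792 and 1748, and 2899 and 1984 at 2-fold. Median-ratio scaling gave 2997 higher and 2045 lower from embryo to larva and 1717 and 2282 from larva to pupa; without the 20 most abundant genes the first step gave 2602 and 3136. Of the 20 nearest profiles, 7 for rhodopsin, 2 for arrestin 2 and 6 for arrestin 1 were shared with those from centred log2 values, so the nearest genes depend on the measure. Beyond what scaling itself does, the cause was not tested. No paired analysis was possible because each stage has 1 library, and for the same reason no library could be left out. Low read numbers, such as the 2 embryonic reads of rhodopsin, limit its ratios to the embryo.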

Other observations

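After timeless was seen to have the profile nearest to arrestin 2, the 4 clock genes named in the files were read in the same libraries; they were chosen with their values known. Period (TC012997) had 4.74, 1.78, 12.1 and 200 RPKM from embryo to adult, an adult level 16.5-fold (14.0 to 19.6) the pupal one. Timeless (TC013997) was 4.43-fold (3.98 to 4.95) higher in the adult than in the pupa, clock (TC000088) 5.45-fold (3.54 to 8.68) and cryptochrome 2 (TC010454, called phr6-4, a photolyase name, in RefSeq) 5.55-fold (3.15 to 10.4). Summed, these genes stood at 21.6, 4.85, 53.1 and 388 RPKM from embryo to adult. The sources used here do not give the time of day at which animals were collected.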
